A study of Mus musculus with 7 samples.

Results

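The genes described here are 10 of the 26607 listed in each library: Vegfa, Vegfb, Vegfc, Pgf, Hif1a, Angpt1, Angpt2, Angptl2, Angptl4 and Angptl7. They were taken by symbol as 1 functional family, by a rule that names no measured value, although earlier results of these data were known when the family was chosen. The data are RNA-seq libraries of C2C12 myotubes, which are immature muscle cells formed in culture from a clonal mouse myoblast line. Myoblasts were grown in 10% serum and differentiated in 2% serum for 3 days. The EPS group (n = 4, replicates 1 to 4) then received electrical pulse stimulation at 1 Hz for 24 h, which makes myotubes contract, and rested for 1 h. The control group (n = 3, replicates 1, 3 and 4) received no pulses. The comparison asks whether contracting myotubes, with no blood vessel or other organ present, carry more or less RNA for secreted regulators of vessels and for the oxygen-sensing factor behind some of them. Nothing states that the libraries of a group came from separate cultures, so every p measures only the spread between these libraries, which may be technical.

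VEGF family ligands bind tyrosine kinase receptors on endothelial cells. VEGF-A is the main signal for new capillaries and is released by skeletal muscle, VEGF-B acts on FLT1, VEGF-C is the main ligand for lymphatic vessels through FLT4, and placental growth factor (Pgf) binds FLT1. HIF-1α, the product of Hif1a, is destroyed in the presence of oxygen by the prolyl hydroxylases (the Egln genes) and the VHL ligase. Its protein level is therefore set largely after transcription, and when stable it binds a short DNA core in its target genes, Vegfa among them. Angiopoietin-1 activates the endothelial receptor TIE2 (gene Tek) and keeps vessels quiet, and angiopoietin-2 often opposes it. The angiopoietin-like proteins share the fold of the angiopoietins but do not bind TIE2. Angptl2 is an inflammatory and matrix-linked secreted factor, Angptl4 inhibits lipoprotein lipase and is a target of the PPAR receptors, and Angptl7 was described in the eye and cornea.

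Values are the deposited CPM, the reads on a gene scaled by the total of its library, over totals of 16616917 to 22120641 reads in the control libraries and 18830229 to 21892568 in the EPS libraries. A count of 3 reads, taken as the floor of detection, corresponds to 0.136 to 0.181 CPM, and such floors and all intervals on reads cover counting error only. Control replicate 4 stands apart: it has 14014 genes above 0 where the other libraries have 16144 to 16984, and 359 genes with 1 to 5 reads where the others have 2670 to 3181. Results for the rarest members, Angpt2 and Angptl7, are therefore given also without it, and those for other genes only where stated. The 12 skeletal myotube markers were all above 1 CPM, with summed levels of 20594 to 23171 CPM in control and 14396 to 21414 CPM in EPS. Of them 9 had a log2 fold change below 0, and Actn2 alone had groups without overlap, lower in EPS. The 11 endothelial markers summed to 2.77 to 4.84 CPM in control and 1.96 to 3.40 CPM in EPS, and Emcn, Erg and Tie1 had 0 reads throughout. The 4 adipocyte markers summed to at most 0.0465 CPM, with Plin1, Cidec and Lep at 0. The 4 macrophage markers summed to 0.816, 1.32 and, in replicate 4, 1.99 CPM in control, and to 1.44 to 2.87 CPM in EPS. Only control replicate 4 reached the EPS range. Emr1 among them was at 0, and Csf1r was higher in every EPS library at no more than 0.690 CPM. The 3 pericyte markers summed to 4.02, 3.79 and, in replicate 4, 1.36 CPM in control, and to 1.96 to 3.61 CPM in EPS, with Rgs5 at 0. The controls other than replicate 4 lay above every EPS library in this sum. The 4 myoblast markers summed to 567 to 736 CPM in control and to 391 to 527 CPM in EPS, without overlap. Of them Cdh15 and Myod1 were lower in every EPS library, while the groups overlapped for Myf5 and Pax7. Cdh15 and Myod1 carry most of that sum, with control means of 485 and 132 CPM beside 20.2 for Pax7 and 6.11 for Myf5. Of the 19144 genes above 0 in any library, 7.76% were higher and 2.85% lower without overlap. In such bulk libraries fewer cells of a type and less RNA per cell cannot be told apart, and the part of these marker differences in the results below was not tested.

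The DNA just before the start of a gene is shown for 3 members that were higher in every EPS library and for Vegfa, the best known gene of the family. Egln3 and Bnip3, 2 of the genes of the oxygen-sensing lists that rose past 2-fold, are shown with them. Each line holds the 250 bases before a RefSeq start (build GRCm38.p6), 5′ to 3′ on the strand of the gene. Capitals mark each match to the core bound by HIF-1α, which is ACGTG in its commoner form and in the other form begins with another base, GCGTG. Both strands were searched, so a match on the other strand appears as its reverse complement. The first form overlaps its own reverse complement where a C precedes it, and such a run counts as 2 matches.
Vegfa: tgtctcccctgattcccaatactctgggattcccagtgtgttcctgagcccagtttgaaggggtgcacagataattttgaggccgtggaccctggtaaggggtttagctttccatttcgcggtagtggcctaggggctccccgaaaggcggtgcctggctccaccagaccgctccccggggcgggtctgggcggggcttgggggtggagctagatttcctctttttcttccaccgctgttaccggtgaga
Vegfb: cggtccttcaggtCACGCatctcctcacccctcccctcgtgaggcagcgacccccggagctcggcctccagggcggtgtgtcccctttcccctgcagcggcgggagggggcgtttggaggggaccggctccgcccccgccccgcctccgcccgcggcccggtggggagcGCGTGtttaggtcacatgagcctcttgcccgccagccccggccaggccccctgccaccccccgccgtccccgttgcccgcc
Angptl2: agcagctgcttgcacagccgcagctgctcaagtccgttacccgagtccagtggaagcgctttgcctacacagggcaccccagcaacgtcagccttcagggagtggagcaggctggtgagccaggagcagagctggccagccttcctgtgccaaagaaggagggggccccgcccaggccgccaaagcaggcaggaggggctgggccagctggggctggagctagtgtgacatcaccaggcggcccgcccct
Angptl7: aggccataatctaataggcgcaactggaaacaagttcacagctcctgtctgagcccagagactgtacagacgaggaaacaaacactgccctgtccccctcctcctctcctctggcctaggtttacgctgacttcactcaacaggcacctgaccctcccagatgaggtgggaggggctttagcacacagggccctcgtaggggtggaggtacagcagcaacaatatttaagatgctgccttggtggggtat
Egln3: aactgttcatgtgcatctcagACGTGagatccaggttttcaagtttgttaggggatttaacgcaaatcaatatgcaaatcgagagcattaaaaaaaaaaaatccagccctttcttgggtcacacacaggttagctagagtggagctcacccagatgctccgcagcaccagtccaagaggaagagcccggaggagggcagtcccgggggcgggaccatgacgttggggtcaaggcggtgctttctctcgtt
Bnip3: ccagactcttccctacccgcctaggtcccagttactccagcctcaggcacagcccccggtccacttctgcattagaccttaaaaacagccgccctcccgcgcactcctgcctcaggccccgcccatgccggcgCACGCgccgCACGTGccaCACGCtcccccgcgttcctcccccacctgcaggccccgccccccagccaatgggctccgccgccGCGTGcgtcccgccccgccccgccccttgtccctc
The windows lie at chr17:46032378-46032627 (minus strand) for Vegfa, chr19:6987652-6987901 (minus) for Vegfb, chr2:33215711-33215960 (plus) for Angptl2, chr4:148500463-148500712 (minus) for Angptl7, chr12:54203875-54204124 (minus) for Egln3 and chr7:138909507-138909756 (minus) for Bnip3. In GENCODE M21 the Angptl2 window lies in an intron of Ralgps1 and the Angptl7 window in an intron of Mtor, and 13 bases of the Bnip3 window are exonic. The Vegfa and Angptl windows hold no match, the Vegfb window holds 2, the Egln3 window 1 and the Bnip3 window 5. The window of Ankrd37, which also rose past 2-fold, holds 4 and is not shown. A second RefSeq start of Vegfa, inside the gene, has 2 matches, and 218 of the 250 bases before it are exonic, 67 of them coding. Hif1a has 3, in a window inside its annotated gene. Pgf has 1 in the first of its 2 windows, which lie wholly in exons of Pgf, and Vegfc has 0. Of the members with a match, only Vegfb has it in DNA before its annotated gene. RefSeq windows matched 7 of the 10 members, and Angpt1, Angpt2 and Angptl4 had none. A match occurred for 4 of those 7 genes (57.1%), beside 41.5% of the 27025 genes with a window and all 19 of the 24 textbook HIF target genes that have one. Counted by window, as some genes have more than 1, the shares were 44.4%, 38.6% and 85.7%. A match is a description of letters, not a binding site. DNA farther than 250 bases before a start was not searched, so a window with no match, as for Vegfa, does not describe the whole promoter.

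**Figure D1:**
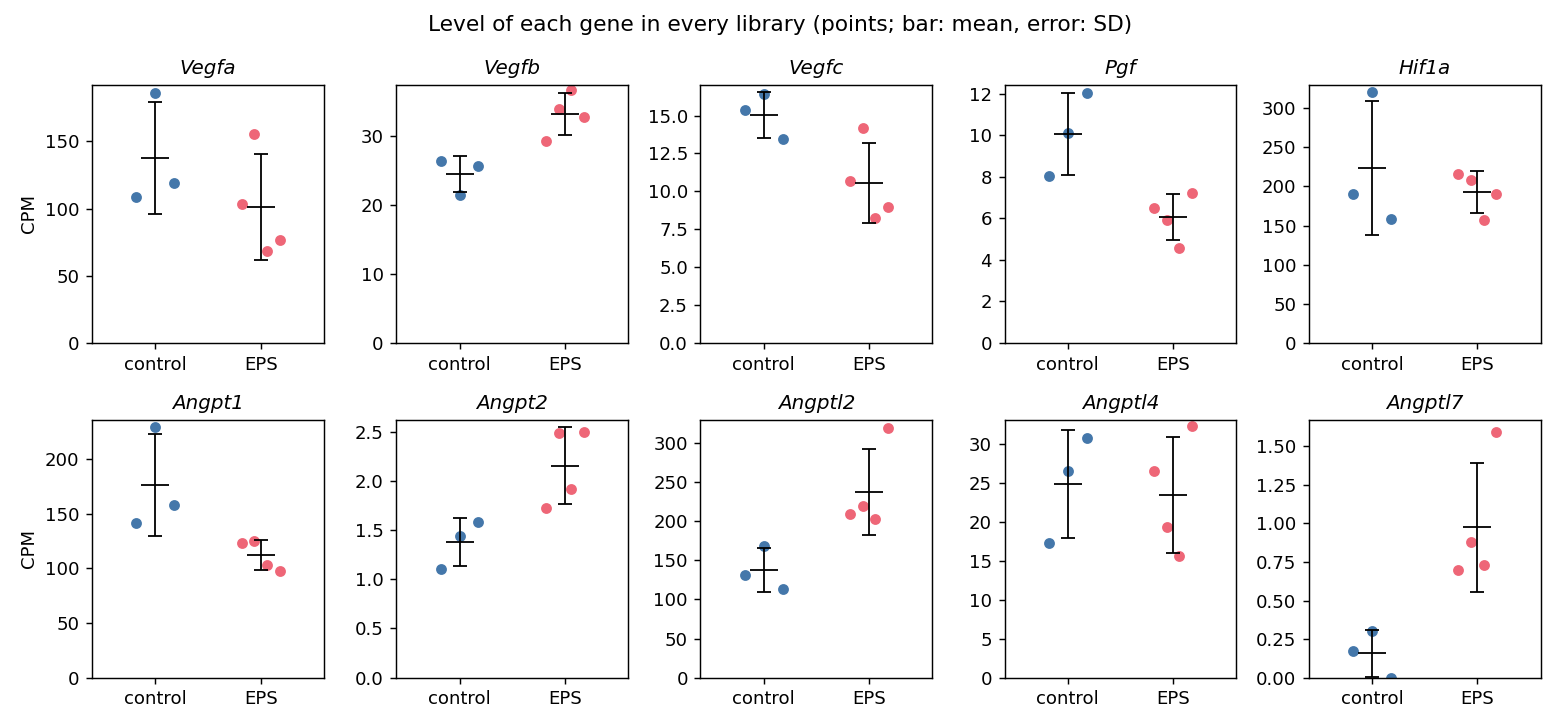
Level of each of the 10 genes in CPM (linear axis from 0) in the 3 control and 4 EPS libraries. Points are libraries, the bar is the mean and the error bar the SD; Vegfb, Angpt2, Angptl2 and Angptl7 are higher in every EPS library than in every control library, and Pgf and Angpt1 are lower in every EPS library.

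Of the 10 members, 4 were higher in every EPS library than in any control library (Vegfb, Angpt2, Angptl2 and Angptl7), 2 were lower in every EPS library (Pgf and Angpt1), and the groups of the other 4 overlapped (Vegfa, Vegfc, Angptl4 and Hif1a). Among the 19144 genes above 0 in at least 1 library, 7.76% were higher and 2.85% lower in this sense, and among the 12256 genes with a mean of at least 1 CPM the shares were 9.18% and 3.49%. All 10 members were above 0, and 9 had a mean of at least 1 CPM, Angptl7 being the exception. No member was called in the limma fit of log2(CPM + 1) across all tested genes. The rule of a Benjamini-Hochberg adjusted p under 0.05 called 0.0992% of the genes as higher and 0.0418% as lower. The rule of an unadjusted P under 0.01 with more than 2-fold called 0.966% as higher and 0.439% as lower. On reads recovered from the CPM, edgeR called no member by the adjusted rule and DESeq2 called 1 (Angpt1), while both called 1 (Angptl7) by the P and 2-fold rule. These fits call more genes in all, 290 and 497 of the 19144 by the adjusted rule and 629 and 585 by the other, with TMM in edgeR. In limma an unadjusted P under 0.05 was reached by 5 members (Vegfb, Angptl2 and Angptl7 above control, Pgf and Angpt1 below) and by 11.6% of all tested genes. Which members reach it depends on the scaling. In limma after quantile normalization the P was 0.102 for Vegfb and 0.0159 for Vegfc, and after median-of-ratios scaling 0.0906 and 0.0218. The median log2 fold change was -0.12 over the members and 0.041 over all tested genes. The members' median was 0.055 without control replicate 3, 0.0072 without EPS replicate 3 and -0.28 without control replicate 1, so it has no firm sign. With 3 against 4 libraries there are 35 ways to assign them, so an exact permutation p cannot go below 0.0286.

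Vegfa (ENSMUSG00000023951.17, chr17:46016993-46032369, minus strand) encodes the main signal for new capillaries. Its control levels were 109, 186 and 119 CPM and its EPS levels 103, 156, 68.1 and 76.7 CPM. The EPS libraries 3 and 4 were the lowest, but EPS replicate 2 lay above 2 of the 3 controls, so the groups overlapped. The mean was 138 ± 41.9 CPM (SD, n = 3) in control and 101 ± 39.5 CPM (n = 4) in EPS. On the log2 scale the difference was -0.48 with an SE of 0.30 and a 95% interval of -1.17 to 0.21, and limma gave an adjusted p of 0.595. That interval includes no difference and a fall of more than 2-fold, but it does not reach a 2-fold rise. With single libraries left out it ranged from -0.24 without control replicate 3 to -0.71 without EPS replicate 2, where the groups no longer overlapped and limma's adjusted p was 0.356.

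Vegfb (ENSMUSG00000024962.13, chr19:6982473-6987651, minus strand), a ligand of FLT1, stood at 26.3, 21.5 and 25.7 CPM in control and at 29.2, 34.0, 36.6 and 32.8 CPM in EPS, with no overlap. The mean was 24.5 ± 2.62 CPM against 33.1 ± 3.07 CPM, a ratio of 1.35. The log2 fold change of 0.42 (SE 0.16) had an unadjusted P of 0.0267 and an adjusted p of 0.348 in limma, and the exact permutation p was 0.0286, the smallest possible.

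Vegfc (ENSMUSG00000031520.6, chr8:54077606-54187096, plus strand), the lymphatic ligand, was at 15.3, 16.4 and 13.4 CPM in control and at 10.7, 14.2, 8.27 and 8.97 CPM in EPS. Only EPS replicate 2 reached the control range. The means were 15.1 ± 1.52 and 10.5 ± 2.64 CPM, and the log2 fold change was -0.50 (SE 0.24, limma adjusted p 0.463). Pgf (ENSMUSG00000004791.7, chr12:85166635-85177790, minus strand), the placental growth factor gene, was at 8.05, 10.1 and 12.0 CPM in control and at 6.52, 5.94, 4.57 and 7.22 CPM in EPS. Every EPS library lay below every control library. Control exceeded EPS by a ratio of 1.66, with means of 10.1 ± 1.99 and 6.06 ± 1.13 CPM. For Pgf the log2 fold change was -0.65 with a 95% interval of -1.22 to -0.073 and an adjusted p of 0.365 in limma, and the exact permutation p was 0.0286.

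The levels of Vegfa and Vegfb per kb of annotated exons were set against each other within each library, a ratio chosen after the values were seen and given with no test. Vegfa over Vegfb was 1.55, 3.24 and 1.74 in control and 1.32, 1.72, 0.696 and 0.877 in EPS. EPS replicate 2 lay inside the control range, and in EPS replicates 3 and 4 Vegfb was the more abundant per length. The mean ratio was 2.17 ± 0.928 in control and 1.15 ± 0.460 in EPS.

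Hif1a (ENSMUSG00000021109.13, chr12:73901375-73947530, plus strand) was abundant in all libraries, at 191, 321 and 159 CPM in control and 216, 208, 157 and 190 CPM in EPS. The groups overlapped throughout, and control replicate 3 was the highest of all libraries. The means were 223 ± 85.8 and 193 ± 26.4 CPM. The log2 fold change of -0.16 had an SE of 0.25, a 95% interval of -0.72 to 0.40 and an adjusted p of 0.850 in limma. Without control replicate 3 the difference turned to 0.14. These are RNA levels, and the protein was not measured here.

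Angpt1 (ENSMUSG00000022309.9, chr15:42424723-42676977, minus strand), the TIE2 agonist, was at 142, 229 and 158 CPM in control and at 123, 125, 104 and 97.2 CPM in EPS. Every EPS library lay below the lowest control, while control replicate 3 was far above the other controls. The mean was 177 ± 46.6 CPM in control and 112 ± 14.1 CPM in EPS, a ratio of 1.57 of control over EPS. The log2 fold change of -0.62 (SE 0.20, 95% interval -1.07 to -0.18) had an unadjusted P of 0.0112 and an adjusted p of 0.246 in limma, and the exact permutation p was 0.0286. DESeq2 on the recovered reads gave -0.76 with an adjusted p of 0.0249, the only adjusted call of any member under any setting tried, and over the 18 alternatives its adjusted p ranged from 0.0249 to 0.571.

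Angpt2 (ENSMUSG00000031465.6, chr8:18690263-18741562, minus strand), the context-dependent antagonist, was near the lower end of what was measured. It had 19, 24 and 35 reads in control and 37, 51, 42 and 47 reads in EPS, which correspond to 1.11, 1.44 and 1.58 CPM and to 1.72, 2.48, 1.92 and 2.5 CPM. The groups did not overlap in CPM, but the gap between control replicate 4 and EPS replicate 1 was narrow. The means were 1.38 ± 0.244 and 2.16 ± 0.395 CPM, a ratio of 1.56. The log2 fold change of CPM + 1 was 0.40 (SE 0.18), with a limma adjusted p of 0.445 and an exact permutation p of 0.0571, and it was 0.47 without control replicate 4.

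Of the 2 angiopoietins among the members, Angpt1 was lower and Angpt2 higher in every EPS library. The ratio of Angpt1 over Angpt2 per kb of exons, chosen after the values were seen and given with no test, was 90.7, 113 and 70.9 in control and 50.7, 35.8, 38.3 and 27.6 in EPS. The groups did not overlap, which had to follow from the separate levels of both genes and adds no further support. The mean ratio was 91.4 ± 20.9 in control against 38.1 ± 9.57 in EPS. The few reads of Angpt2 set the precision of each of these ratios.

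**Figure D2:**
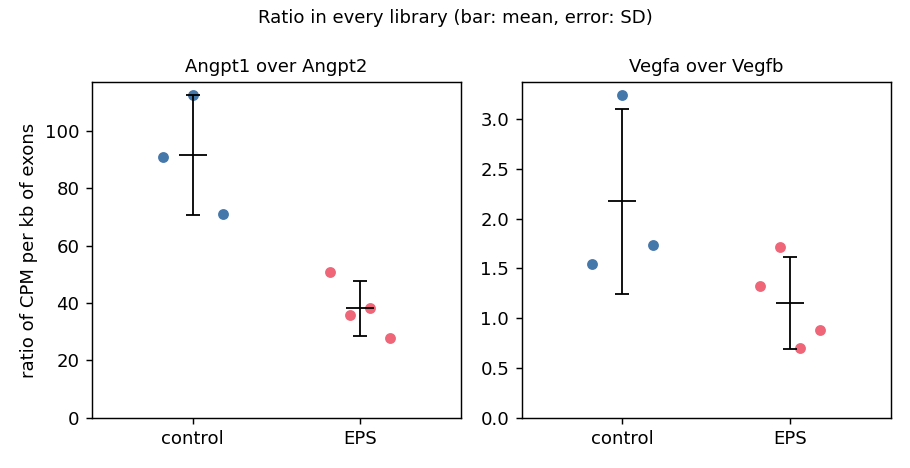
Ratio of CPM per kb of exons within each library (linear axes from 0), Angpt1 over Angpt2 at left and Vegfa over Vegfb at right, for 3 control and 4 EPS libraries; the bar is the mean and the error bar the SD. The Angpt1 ratios of the EPS libraries (27.6 to 50.7) lie below all controls (70.9 to 113), which follows from the separate levels of both genes. The Vegfa ratios of the groups overlap.

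Angptl2 (ENSMUSG00000004105.8, chr2:33216069-33247717, plus strand) was the member with the largest difference in CPM. It stood at 131, 168 and 113 CPM in control and at 209, 220, 202 and 319 CPM in EPS. Every EPS library lay above every control library, and EPS replicate 4 lay far above the other 3. The mean was 137 ± 28.0 CPM in control and 237 ± 54.9 CPM in EPS, a ratio of 1.73. The log2 fold change was 0.78 with an SE of 0.21 and a 95% interval of 0.30 to 1.26. Its unadjusted P of 0.00522 came with an adjusted p of 0.195 in limma, and the exact permutation p was 0.0286. Without EPS replicate 4 the log2 fold change was 0.63.

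Angptl4 (ENSMUSG00000002289.16, chr17:33773750-33781830, minus strand), the lipoprotein lipase inhibitor, was at 17.3, 26.6 and 30.8 CPM in control and at 26.6, 19.3, 15.7 and 32.3 CPM in EPS. The groups overlapped over nearly their whole range. The means were 24.9 ± 6.93 and 23.5 ± 7.45 CPM, and the log2 fold change was -0.093 with a 95% interval of -0.75 to 0.57 and a limma adjusted p of 0.912. The sign turned to 0.074 without control replicate 4 and to 0.075 without EPS replicate 3.

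Angptl7 (ENSMUSG00000028989.3, chr4:148495183-148500460, minus strand) was the rarest member and had the lowest P. It had 3, 5 and 0 reads in control and 15, 18, 16 and 30 reads in EPS, or 0.17, 0.30 and 0.00 CPM against 0.70, 0.88, 0.73 and 1.59 CPM. The groups did not overlap, and EPS replicate 4 was the highest. The control library with 0 reads is replicate 4, which has few low genes in general; the other controls, with 3 and 5 reads, lie at or just above the floor. The mean was 0.159 ± 0.151 CPM in control and 0.975 ± 0.420 CPM in EPS, a ratio of 6.15. Summed over libraries, 8 reads in control and 79 in EPS give a ratio of rates of 6.67, with an exact binomial 95% interval of 3.23 to 15.99 that covers counting error only. Without control replicate 4 that ratio is 4.03 (1.95 to 9.66). On the log2(CPM + 1) scale, which understates changes of low genes, the fold change was 0.76 (SE 0.16, P 0.00133, adjusted p 0.117 in limma), and 0.65 without control replicate 4. The exact permutation p was 0.0286. On the recovered reads the log2 fold change was 2.55 in edgeR with TMM scaling and 2.58 in DESeq2, both past the P and 2-fold rule but not an adjusted p under 0.05. The size of the fitted change of this gene depends on the pseudocount.

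**Figure D3:**
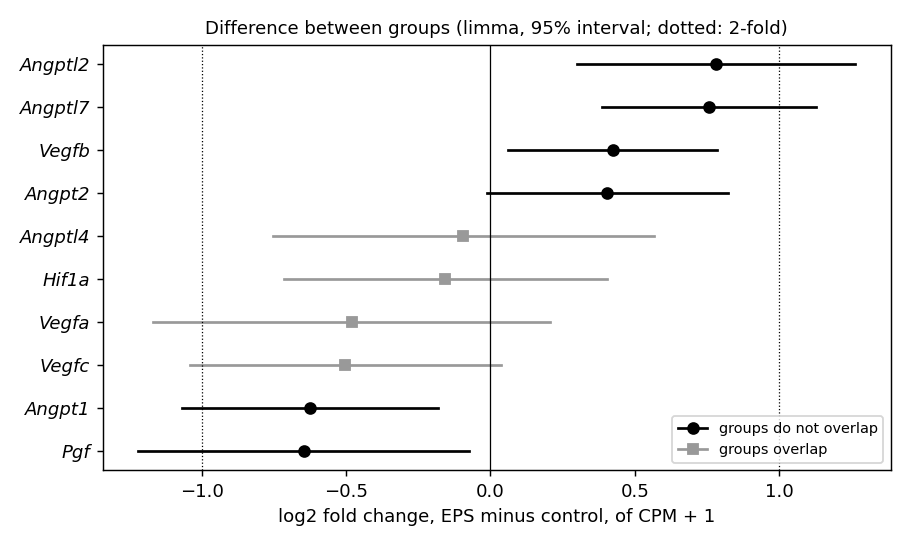
Log2 fold change of CPM + 1 (EPS minus control) of each member with its 95% interval from limma, ordered by size; circles mark genes whose groups do not overlap, squares genes whose groups overlap, and dotted lines 2-fold. The estimates run from -0.65 for Pgf to 0.78 for Angptl2, and none passes 2-fold.

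Levels of different genes were compared only per length, as CPM per kb of annotated exons. In control the order was Hif1a (37.9), Angpt1 (33.9), Vegfa (32.2), Angptl2 (21.8), Vegfb (15.3), Angptl4 (7.03), Vegfc (6.15), Pgf (3.47), Angpt2 (0.373) and Angptl7 (0.0735). The ranges of Hif1a, Angpt1, Vegfa and Angptl2 overlapped from each to the next, as did those of Angptl4 and Vegfc, and the other neighbours were separate. In EPS the mean of Angptl2 was the highest, at 37.8 CPM per kb, followed by Hif1a (32.7), Vegfa (23.6), Angpt1 (21.6) and Vegfb (20.7), each overlapping the next. Below them came Angptl4 (6.63), Vegfc (4.30), Pgf (2.09), Angpt2 (0.584) and Angptl7 (0.452), where Angptl4 overlapped Vegfc and Angpt2 overlapped Angptl7. Angptl2 was the fourth by its mean in control and the first in EPS, but in EPS its range was not separate from that of Hif1a. Vegfb reached the level of Angpt1 in EPS, while in control the lowest Angpt1 library (27.2) lay above the highest Vegfb library (16.4).

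**Figure D4:**
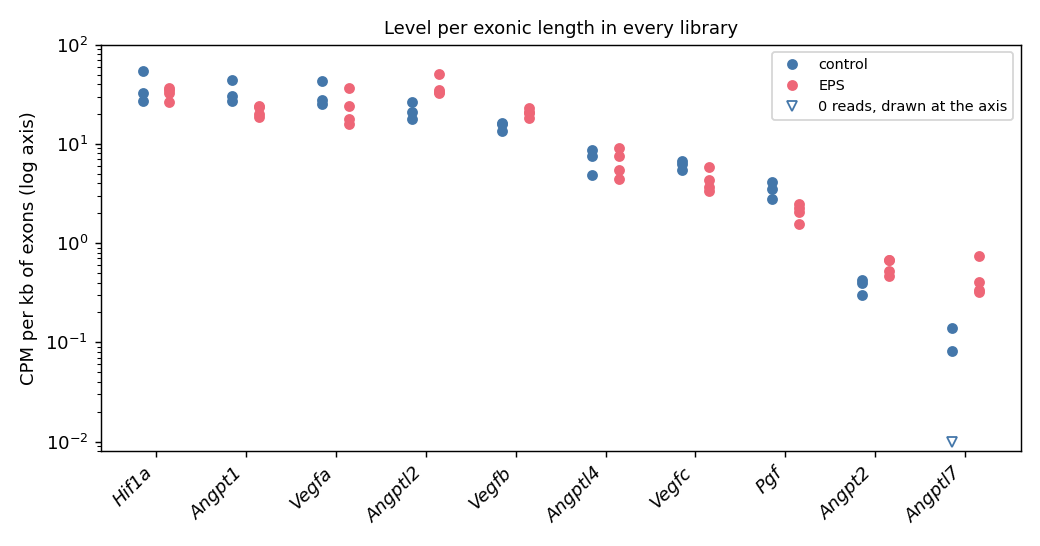
CPM per kb of exons (log axis) of the 10 members in each control and EPS library; the open triangle at the axis is the control library with 0 Angptl7 reads. Hif1a, Angpt1, Vegfa, Angptl2 and Vegfb form an upper group at 13.4 CPM per kb or more in every library, and Angpt2 and Angptl7 lie below 1.

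Of the members, 3 lie inside a larger gene on the opposite strand, Angpt2 inside Mcph1, Angptl2 inside Ralgps1 and Angptl7 inside Mtor, with 0 shared exonic bases. The kit was directional, but the strand setting of the counting is not given in the sources used here, so unspliced reads of a host cannot be set apart. Mcph1 had 16.8 ± 3.71 CPM in control and 22.2 ± 4.64 CPM in EPS, Ralgps1 5.90 ± 1.25 and 6.80 ± 0.408 CPM, and Mtor 126 ± 23.4 and 141 ± 20.7 CPM. The groups overlapped for each host. Angpt1 shares 737 exonic bases with the antisense gene Gm17473, which reached at most 0.120 CPM. Hif1a overlaps Gm15283 (330 exonic bases, opposite strand) and Gm49321 (148, same strand), which are not used here.

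The genes whose pattern over the 7 libraries was most like that of Angptl7 were sought among the 12256 genes with a mean of at least 1 CPM, by the mean absolute difference of centred log2(CPM + 1). The nearest was Angptl2, another member, at 0.0603, followed by Pkn3 (0.0637), Ankrd6 (0.0918), Arhgap18 (0.0926) and Chd1l (0.0946). This likeness is a description that rests on the pseudocount of 1, which shrinks the difference of a gene as low as Angptl7. With a pseudocount of 0.1 the log2 fold changes were 2.20 for Angptl7 and 0.78 for Angptl2. The first of these includes the 0 reads of control replicate 4, and the difference between the 2 genes was not tested.

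Among the receptors for these ligands, Kdr, Flt4 and Tie1 were at or near 0, Flt1 and Tek were low, and the groups of every receptor measured overlapped. Of the 7 receptor genes, 6 were tested, none was called by either rule, and none had groups without overlap, with a median log2 fold change of 0.073. Tie1 had no reads in any library. Kdr, the main receptor of VEGF-A, had 0 reads in control and 6 over all EPS libraries, and Flt4, the VEGF-C receptor, had 0 and 3. Flt1 was at 2.35 to 4.49 CPM in control and 1.41 to 4.05 CPM in EPS, and Tek at 0.466 to 0.782 and 0.639 to 0.931 CPM. The co-receptor gene Nrp1 was at 77.3 to 114 CPM in control and 42.8 to 89.8 CPM in EPS, and Nrp2 at 214 to 309 and 259 to 369 CPM. Of the 6 other ligands of these families none was called. Figf (the gene of VEGF-D) averaged 5.85 CPM in control and 9.72 in EPS, and Angpt4 10.6 and 6.29 CPM, both without overlap, beside 9.18% of genes with a mean of at least 1 CPM that were higher and 3.49% that were lower in this sense. These 2 were named after their values were seen, and their adjusted p in limma was 0.320 and 0.400.

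Among the 10 genes of the HIF pathway beside Hif1a, 1 was called. Egln3, the prolyl hydroxylase that is itself a HIF target, rose by the P and 2-fold rule. Its levels were 108, 135 and 107 CPM in control and 246, 331, 278 and 180.0 CPM in EPS, a ratio of 2.22 without overlap. Its log2 fold change of 1.12 (SE 0.22) had an adjusted p of 0.0965 in limma, and the call was lost without EPS replicate 2 and with the replicate block (0.99 in both, block adjusted p 0.510). Of the list, 7 genes had a fold change above 0 and 3 below, with a median of 0.13. Groups without overlap were found for 2 genes higher in EPS (Egln3 and Cited2) and 0 lower, beside 7.76% and 2.85% of all tested genes. By the P and 2-fold rule 0.966% of all tested genes were higher.

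Of 24 textbook HIF target genes other than the members, all tested, 3 rose by the P and 2-fold rule, none fell, and 1 also had an adjusted p under 0.05. By that rule 0.966% of all tested genes were higher, and 0 of the 10 members. In a limma fit of genes with a mean of at least 1 CPM, as all 24 have, 219 of 12256 were higher by this rule. Hmox1, heme oxygenase, which other stress pathways also drive, rose from 41.2 ± 7.34 to 299 ± 141 CPM (log2 fold change 2.71, SE 0.37, limma adjusted p 0.0443). It kept the P and 2-fold call under all 18 alternatives, over which its adjusted p ranged from 1.02e-12 to 0.510. Bnip3, a mitophagy receptor, had 47.6, 101 and 53.6 CPM in control and 150.4, 411, 201 and 97.8 CPM in EPS. Control replicate 3 lay above EPS replicate 4, so the groups overlapped despite a log2 fold change of 1.54 (SE 0.46, limma adjusted p 0.231). Ankrd37 averaged 1.74 CPM in control and 5.71 in EPS (log2 fold change 1.20, SE 0.36, limma adjusted p 0.231), without overlap. The calls of Bnip3 and Ankrd37 were each lost under 8 of 18 alternatives, among them leaving out control replicate 4. Without that library their log2 fold changes were 1.41 and 1.10. Over the alternatives these ranged from 1.16 to 1.87 for Bnip3 and from 0.91 to 1.72 for Ankrd37. Over the list, 20 genes were above 0 and 4 below, with a median of 0.51, beside a median of 0.10 over all genes with a mean of at least 1 CPM. The groups did not overlap for 5 higher genes and 1 lower gene, beside 9.18% and 3.49% of those genes. Vegfa, with -0.48, lies next to the lower end of this list, whose range is -0.51 to 2.71.

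**Figure D5:**
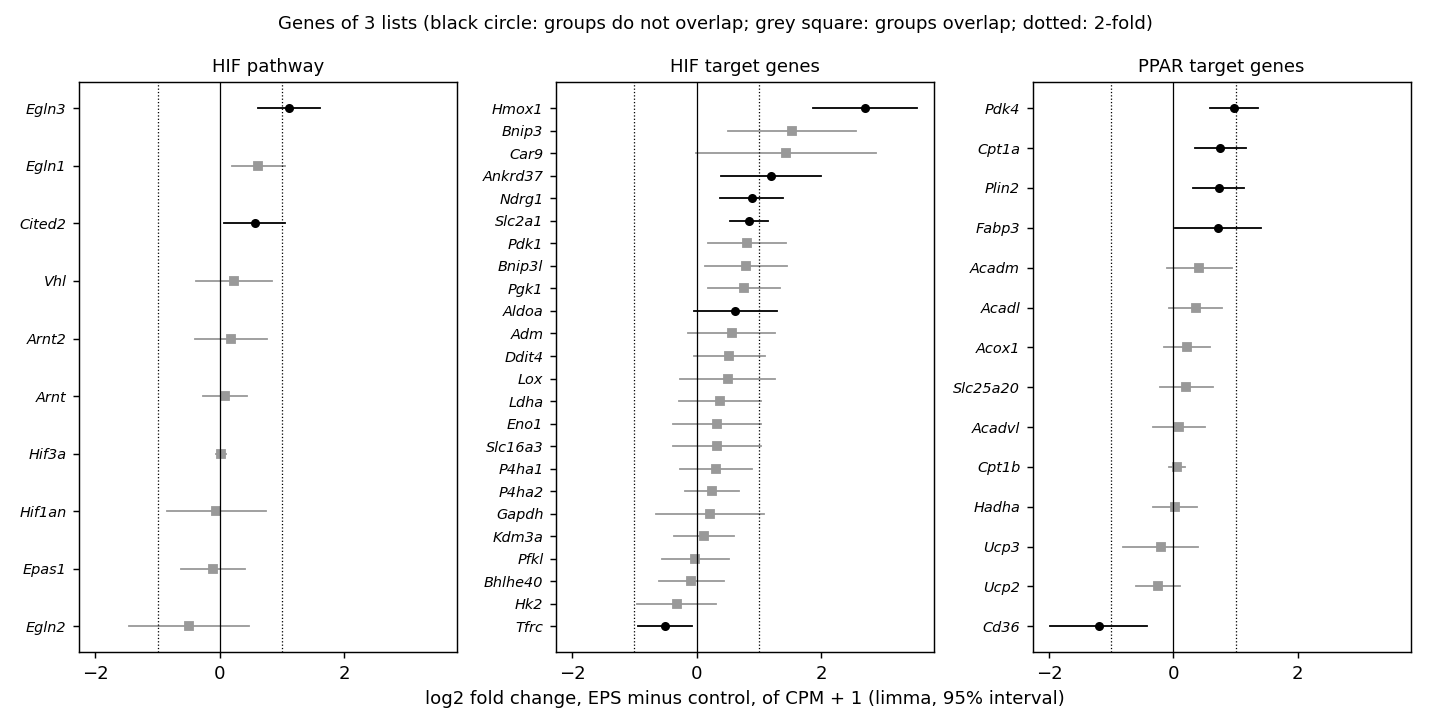
Log2 fold change of CPM + 1 (EPS minus control) with its 95% interval from limma for 10 HIF pathway genes, 24 HIF target genes and 14 PPAR target genes; black circles mark groups without overlap, grey squares overlap, dotted lines 2-fold. Most HIF target genes lie above 0 (20 of 24), Hmox1 being the highest at 2.71 and Tfrc the lowest at -0.51.

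Around Angptl4, 14 of 15 textbook PPAR target genes were tested and 1 was called. Cd36, a fatty acid transporter, fell by the P and 2-fold rule, from 64.1 to 25.8 CPM (log2 fold change -1.20, SE 0.34, limma adjusted p 0.219), and this call was lost under 6 of 18 alternatives, all of them a left-out library or no filter on low genes. Over the 18 alternatives its log2 fold change ranged from -1.54 to -0.82. The groups did not overlap for 4 genes higher in EPS (Plin2, Pdk4, Cpt1a and Fabp3) and for Cd36 alone in the other direction, beside 7.76% and 2.85% of all tested genes. By the P and 2-fold rule 0.439% of all tested genes were lower. Those 4 were named after their values were seen. The list had 11 genes above 0 and a median of 0.21, beside 0.10 over genes with a mean of at least 1 CPM and -0.093 for Angptl4. Scaling by median of ratios gave that median as 0.10, and quantile normalization as 0.12. Of the 5 genes of the lipoprotein lipase axis, 4 were tested, none was called and none had groups without overlap. Of 17 other secreted regulators of vessel growth, 1 was called. Ctgf, a matrix-bound growth factor, fell from 134 ± 49.5 to 50.7 ± 5.06 CPM (log2 fold change -1.33, SE 0.22, limma adjusted p 0.0712), and it kept this call under all 18 alternatives. That list had a median of -0.15, with no overlap for 1 higher and 3 lower genes.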

How the data were processed

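Poly(A) RNA was sequenced from directional libraries with paired 100 bp reads, and the submitters' processing notes name STAR 2.5.4b and the build GRCm38. The values deposited by the authors are CPM for 26607 genes per library. The study's methods also name a log transformation and quantile normalization, and the values carry neither. The counting tool, annotation and strand setting are not given in the sources used here. Whole reads were recovered in every library (100% of values within 0.05 reads), which gave each depth.

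The 19144 genes with a value above 0 anywhere were fitted as log2(CPM + 1) with limma 3.58.1 in R 4.3.3 (empirical Bayes with a mean-variance trend, no covariate, Benjamini-Hochberg adjustment over all of them). Calls used an adjusted p under 0.05, or P under 0.01 with more than 2-fold. Single members were also tested with a two-sided exact permutation test of mean log2(CPM + 1) in SciPy 1.17.1. Alternatives were edgeR 4.0.16 (quasi-likelihood) and DESeq2 1.42.0 on recovered reads, robust empirical Bayes, pseudocounts of 0.5 and 0.1, no filter, a filter at a mean of 1 CPM, scaling by median of ratios, quantile normalization, the replicate number as a block and leaving out each library. The fits were tested on simulated data. Positions and exonic lengths come from GENCODE M21 (GRCm38), and sequences from RefSeq.

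The text names all members, list genes that pass a call rule (at most 6 per list), and the 5 genes most like the member with the lowest P. The receptors, host genes, markers and other list genes named beside these were chosen after their values were seen. The members and lists were chosen with earlier results of these data known.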

Additional observations from a re-analysis of the deposited data

Results flagged for a closer look

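In 1 of the 10 groups of 4 EPS libraries, 1 per member, a library stood apart from the rest. For Angptl2 EPS replicate 4 had 319 CPM, while the other EPS libraries had 202 to 220 CPM, and the gap was 0.849 of the range of the group above Dixon's 95% limit for 4 values. Chance alone marks about 1 in 20 such groups. The control groups of 3 were not examined in this way.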

How the results depend on the processing

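No member had an adjusted p under 0.05 in limma under any setting, nor in edgeR. DESeq2 gave 1, Angpt1 (-0.76). By P under 0.01 with more than 2-fold, 1 member (Angptl7) was called with a pseudocount of 0.1 or 0.5, in edgeR with or without TMM and in DESeq2, and none under the other settings. Leaving out each library in turn gave 0 to 0 members by either rule, and 6 to 8 members without overlap. The 8 arose without EPS replicate 2 (Vegfa and Vegfc added). Leaving out a library can only remove overlap, and the share of all tested genes without overlap was 10.6% with all libraries and 13.0% to 21.5% with 1 left out (15.4% without EPS replicate 2). Quantile normalization and median-of-ratios scaling gave 7 (Vegfc added), beside 9.44% and 9.88% of all tested genes. The median over the members ranged from -0.28 to 0.055 with single libraries left out, and from -0.22 to -0.26 under both scalings, edgeR with TMM and DESeq2. Over the genes averaging at least 1 CPM these scalings moved the median difference (log2) from 0.10 to 0.0052 and -0.0048. The fold change reversed to 0.14 for Hif1a without control replicate 3, and for Angptl4 to 0.074 without control replicate 4 and 0.075 without EPS replicate 3. With single libraries left out, Hif1a ranged from -0.37 to 0.14 and Angptl4 from -0.33 to 0.075. The other members kept their sign under every setting that tested them, and Angptl7 was not tested with a minimum mean of 1 CPM.

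Over all genes the adjusted rule called 27, but 290 in edgeR with TMM, 283 without TMM, 497 in DESeq2, 106 with a pseudocount of 0.1, 121 with a minimum mean of 1 CPM, 17 after quantile normalization, 10 with no filter and 0 with the replicate block. With 1 library left out it called 0 (without EPS replicate 3) to 27 (without EPS replicate 1). The P and 2-fold rule called 269 (185 higher), but 629 (329 higher) in edgeR with TMM, 631 (407 higher) without TMM, 585 (317 higher) in DESeq2 and 601 (445 higher) with a pseudocount of 0.1. It called 252 (130 higher) after quantile normalization and 254 (134 higher) after median-of-ratios scaling. Of the 24 HIF target genes, 20 were above 0 under each of both scalings, added after the data were seen, and those without overlap above control numbered 5 as deposited, 6, 5 and, without control replicate 4, 8. In that last setting 16.6% of genes with a mean of at least 1 CPM were higher without overlap, and 1 HIF target gene in place of 3 passed the P and 2-fold rule. For PPAR target genes the numbers above 0 were 11, 10 and 9. The causes of these differences were not tested.

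Libraries with the same number were checked for pairing. The correlations of their deviations over 12256 genes were 0.25, -0.45 and 0.068, so the numbers were not taken to pair them. With the replicate block no member was called by either rule, the fold changes of the members kept their signs (Vegfa -0.71, Angptl2 0.81), and EPS replicate 2, which has no partner, carried no weight. Angptl7 is limited by its few control reads (3, 5 and 0), the 0 being in control replicate 4, the deepest library.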
